A study of Homo sapiens with 2 samples.

Results

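The quinone, heme and iron genes examined here are NQO1, NQO2, HMOX1, BLVRA, BLVRB, FTL, FTH1, FECH and ABCB6, a set of 9 of the 20163 protein-coding genes in the annotation. They were chosen by name, as genes of quinone reduction, heme turnover and iron storage that are known for antioxidant response elements (AREs). Earlier results of these data were known when this set and the pathway lists below were chosen, so the shares given are descriptive. An NRF1 peak was assigned to a gene when its centre lay within 50 kb of any transcription start site (TSS) of that gene, or when the study's own annotation listed it for the gene, which added 0 peaks. This gave 13 of the 5683 peaks.

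The peaks come from chromatin immunoprecipitation and sequencing (ChIP-seq) of NRF1 in HCT116, a human colorectal carcinoma cell line, after 16 h in 1 µM MG132, a peptide aldehyde that inhibits the proteasome. NRF1 here is the product of NFE2L1, not nuclear respiratory factor 1, and it was precipitated with a rabbit antibody raised against the mouse protein. There was 1 ChIP library, cells without MG132 were not analysed here, and the input library of MG132-treated cells was not analysed either. The list therefore shows where NRF1 was found under proteasome inhibition and carries no replicate error, no measure of change and no test.

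NRF1 is a CNC-type basic leucine zipper factor that is held at the endoplasmic reticulum and degraded by the proteasome in resting cells. When the proteasome is inhibited, a processed form reaches the nucleus, pairs with a small MAF protein and binds AREs, which are also read by the related factor NRF2. Several of the genes below are textbook ARE genes: quinone reductases turn quinones into hydroquinones without a radical intermediate, heme oxygenase opens the heme ring and releases iron, and ferritin stores that iron in a harmless form.

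AREs were searched on both strands as the consensus TGACNNNGC or TGAGNNNGC, and as the full form TGACTCAGC or TGAGTCAGC, which contains the core TGACTCA or TGAGTCA also read by AP-1 factors. The 10 peaks of the gene set with a full ARE held 12 full sites in all. They are shown because the highest peak of 7 of the 8 genes with a peak holds such a site. Each run below is 39 bases of hg19, read 5′ to 3′ on the strand that carries the site, with the full ARE in capitals.
NQO1, upstream of the TSS, minus strand, chr16:69760910-69760918: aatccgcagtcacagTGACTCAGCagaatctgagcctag
NQO2, intron 1, minus strand, chr6:3002212-3002220: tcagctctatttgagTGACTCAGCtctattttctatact
HMOX1, far upstream peak, minus strand, chr22:35768012-35768020: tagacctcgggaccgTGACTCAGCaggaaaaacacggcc
HMOX1, far upstream peak, minus strand, chr22:35768070-35768078: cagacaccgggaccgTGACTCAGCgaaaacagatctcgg
HMOX1, far upstream peak, minus strand, chr22:35768099-35768107: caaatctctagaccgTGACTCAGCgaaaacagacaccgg
HMOX1, nearer upstream peak, minus strand, chr22:35773149-35773157: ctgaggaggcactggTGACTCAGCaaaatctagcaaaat
BLVRB, intron 1, plus strand, chr19:40970471-40970479: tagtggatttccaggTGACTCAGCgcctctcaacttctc
FTL, upstream, plus strand, chr19:49467199-49467207: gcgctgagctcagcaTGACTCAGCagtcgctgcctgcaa
FTH1, upstream, plus strand, chr11:61739515-61739523: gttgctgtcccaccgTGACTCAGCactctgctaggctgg
FECH, upstream, plus strand, chr18:55254213-55254221: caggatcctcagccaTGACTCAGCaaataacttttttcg
ABCB6, intron 1, plus strand, chr2:220082671-220082679: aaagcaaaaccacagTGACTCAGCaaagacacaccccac
ABCB6, distal peak, minus strand, chr2:220118067-220118075: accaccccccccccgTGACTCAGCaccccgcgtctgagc

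All 12 sites had the letters TGACTCAGC and none had TGAGTCAGC. Over all searched peaks, 78.3% of 3914 full matches were TGACTCAGC. The base before the site was G in 10 of the 12 and A in 2, FTL and FECH, and it was never C or T. Of the sites with G, 3 came from the far upstream HMOX1 peak. Over all full matches in searched peaks the base was A in 57.5%, G in 30.9%, C in 10.0% and T in 1.56%. None of the 12 was preceded by GC, which would make the site a palindrome of the kind that MAF proteins bind as homodimers, and 3.58% of all full matches were. Of the 12 sites, 3 lay on the strand of their gene, in the NQO1, FTL and distal ABCB6 peaks. The other 9 lay on the opposite strand, 4 of them in the HMOX1 peaks. This split was not computed over all peaks. Each 39-base window occurred at 1 place in hg19, so that no window had an identical copy elsewhere in the genome.

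NRF1 peaks were found near 8 of the 9 genes, and BLVRA was the exception. A peak centre lay within 2 kb of a TSS in 6 genes, NQO1, NQO2, BLVRB, FTL, FECH and ABCB6 (66.7%, with a 95% Wilson interval of 35.4 to 87.9 that covers counting error only), beside 6.03% of all protein-coding genes. For HMOX1 and FTH1 the nearest peaks lay further upstream, so that within 10 kb, as within 50 kb, 8 genes had a peak (88.9%, 56.5 to 98.0), beside 32.7% of all protein-coding genes within 50 kb. Of the 13 peaks, 11 were centred within 10 kb of a TSS and 12 had a gene of the set as the nearest protein-coding gene. Neither share was computed over all peaks, and the share of all protein-coding genes with a peak within 10 kb was not computed either. These counts therefore only describe the set. At the edge of the 50 kb window, the farthest peak inside was the distal ABCB6 peak at 34307 bp with a score of 62.65, and the nearest outside lay 55426 bp from a TSS of NQO2 with a score of 214.5.

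**Figure D1:**
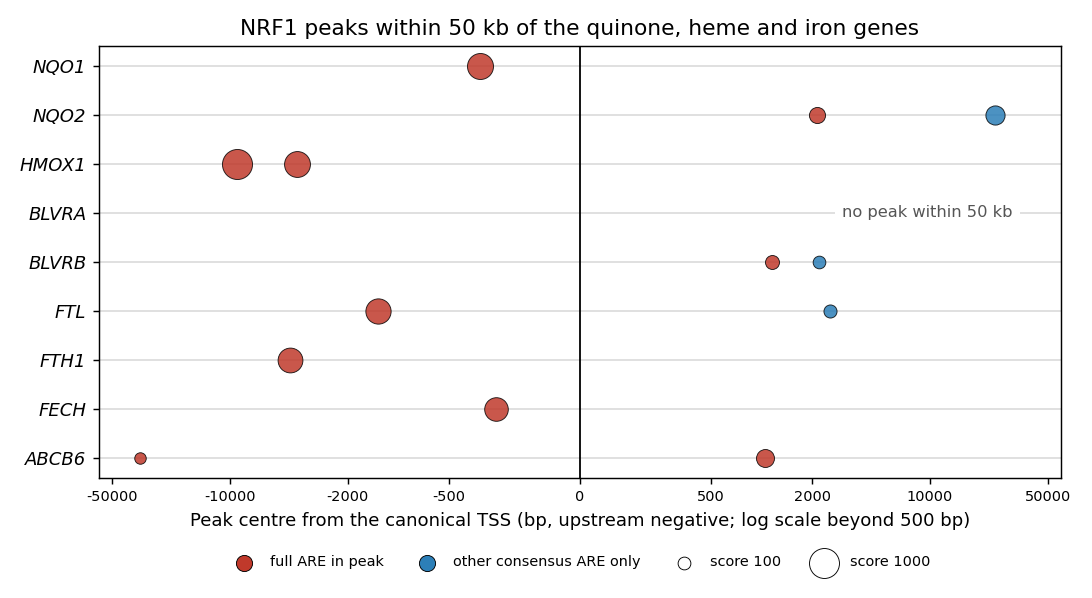
Position of each of the 13 NRF1 peaks relative to the canonical TSS of its gene (bp, upstream negative, linear within 500 bp and logarithmic beyond), 1 row per gene. Circle area grows with the authors' peak score and colour gives the ARE form; the largest circles, for HMOX1, NQO1, FTL, FTH1 and FECH, all lie upstream and all hold a full ARE, and BLVRA has no circle.

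Several of these peaks stood near the top of the list. The MACS score rises with the strength of the evidence for a peak, as the p-value of the peak on a negative log10 scale multiplied by 10, and it ran from 139.83 to 1008.48 for the highest peak of each of the 8 genes. The median of these 8 values was 620.1, beside 108.69 for the highest peak of the 6591 genes with any peak within 50 kb. Only 70 of all peaks (1.23%, 0.976 to 1.55) scored at least that high. The genes HMOX1, NQO1, FTL, FTH1 and FECH each had a peak among the 100 highest scores, which make up 1.76% of the list. That is a share of peaks. Counted by gene, 197 protein-coding genes (0.977%) had a highest peak of at least 584.23, the score of FECH and the lowest of these. NQO2, ABCB6 and BLVRB followed with lower scores, and the order of neighbours in this ranking has no error attached to it.

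**Figure D2:**
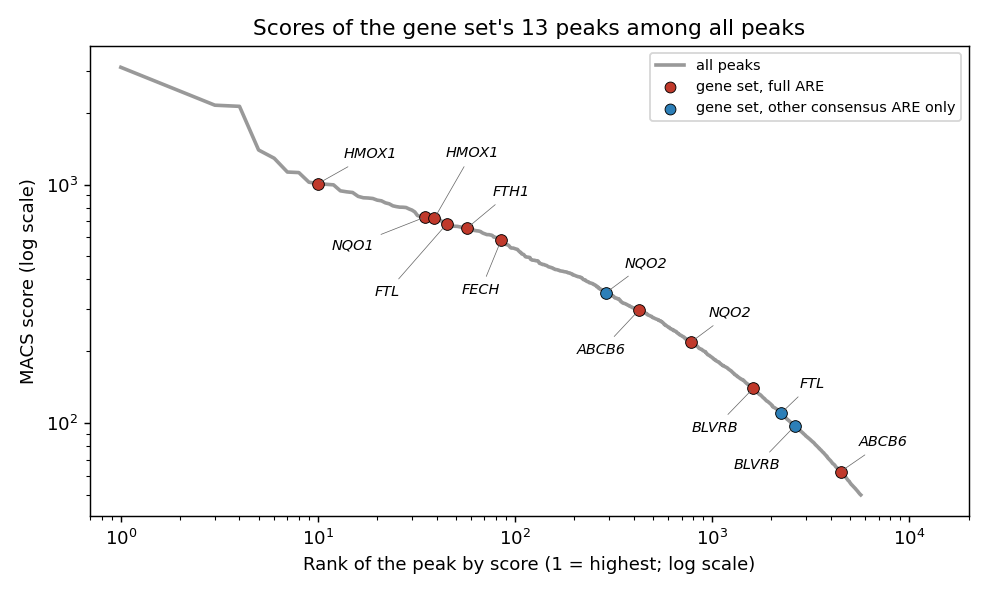
MACS score of every peak against its rank (grey line, both axes logarithmic), with the 13 peaks of the gene set as circles, red with a full ARE and blue with another consensus ARE only. Peaks of HMOX1 (with 2), NQO1, FTL, FTH1 and FECH lie within the top 100 ranks, whereas the distal ABCB6 peak is at rank 4495.

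Among the quinone reductases, NQO1 had a single strong peak at its promoter and NQO2 had a pair of weaker ones. NQO1 (ENSG00000181019, chr16:69740899-69760571, minus strand) encodes NAD(P)H quinone dehydrogenase, a widely used model gene of the ARE. Its peak at chr16:69760258-69761433 scored 730.44 and ranked 35, and 92 of all protein-coding genes (0.456%) had a highest peak of at least this score. The peak was the widest of the set at 1176 bp and its centre lay 382 bp upstream of the canonical TSS. The full ARE printed above sat 451 bp upstream of that TSS and 69 bp from the centre of the peak, the largest such distance among the 10 peaks with a full site. The only other consensus match in this peak, TGAGGCTGC, lay 267 bp from the centre.

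NQO2 (ENSG00000124588, chr6:2988221-3019989, plus strand) encodes a relative of NQO1 that uses dihydronicotinamide riboside in place of NAD(P)H. A peak in intron 1 at chr6:3001957-3002546 scored 218.38 (rank 781) and held the full ARE 35 bp from its centre. The higher NQO2 peak, at chr6:3023945-3024624, scored 352.27 (rank 290) and lay downstream of the gene, 24156 bp from the canonical TSS and 19883 bp from the nearest annotated one. NQO2 was thus the only gene of the set whose highest peak had no full ARE. The intronic peak was centred 1859 bp from an annotated TSS but 2123 bp from the canonical TSS, so that its place within 2 kb depended on which transcript was used.

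Of the genes of heme breakdown, HMOX1 had the highest peak of the set and BLVRA had none. HMOX1 (ENSG00000100292, chr22:35776354-35790207, plus strand) encodes heme oxygenase-1, the inducible enzyme that degrades heme to biliverdin, carbon monoxide and iron. It had no peak within 2 kb of a TSS but 2 upstream, at the places where its distal and proximal stress-responsive enhancers are known to lie. The far upstream peak at chr22:35767489-35768521 scored 1008.48, ranked 10 of 5683 and was centred 9084 bp from the canonical TSS. The nearer upstream peak at chr22:35772695-35773531 scored 721.89, ranked 39 and was centred 3976 bp from that TSS. Both scored above every peak of the other genes, except that the NQO1 peak (730.44) lay between them. A highest peak of at least 1008.48 was found for 25 protein-coding genes (0.124%).

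The far upstream HMOX1 peak held a row of 4 AREs at a constant spacing of 29 bp on the minus strand, 3 of them full and 1 with the letters TGACTTAGC. The stretch is printed because its repeat structure can be read from the letters, with the 4 AREs in capitals (hg19, chr22:35768002-35768117, minus strand, 116 bases).
HMOX1 far upstream AREs: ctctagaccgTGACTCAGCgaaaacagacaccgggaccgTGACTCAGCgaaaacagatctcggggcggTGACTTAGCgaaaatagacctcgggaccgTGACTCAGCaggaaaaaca
Taken from the first base of each ARE, successive 29-base units shared 24 and again 24 identical bases. Peaks with 3 or more separate full AREs were 0.441% of all searched peaks (25 of 5673), and their median score was 639.64. A row of 4 or more evenly spaced consensus matches on 1 strand was found in 14 peaks (0.247%). In the HMOX1 peak the full site closest to the centre was 11 bp away, the shortest distance in the gene set, and the other 3 sites of the row followed at 40, 69 and 98 bp. A further match in this peak, TGACAGAGC at 413 bp from the centre, lay in a window of 39 letters with 2686 copies in hg19.

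The nearer upstream HMOX1 peak had 1 full ARE, 40 bp from its centre, and a second close match, TGACGCAGC, 24 bp from the centre on the other side. The centre is the midpoint of the peak interval, and which site was bound was not tested. This second site is shown because it lay closer to the centre than the full ARE did (hg19, minus strand, capitals mark the consensus match).
HMOX1, nearer upstream peak, chr22:35773085-35773093: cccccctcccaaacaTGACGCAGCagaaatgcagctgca
A full ARE inside the gene, in intron 2 at 4635 bp from the canonical TSS, was not in any peak.

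BLVRA and BLVRB encode the biliverdin reductases that turn biliverdin into bilirubin. BLVRA (ENSG00000106605, chr7:43798279-43846941, plus strand) had no peak within 50 kb of any of its 5 annotated TSSs, the nearest being 83913 bp away with a score of 62.24. It did have a full ARE with the letters TGACTCAGC, 1891 bp upstream of the canonical TSS. The window is given here because it holds the same 9 letters as all 12 sites in peaks, but with a C before them (hg19, plus strand, full ARE in capitals).
BLVRA, upstream, not in a peak, chr7:43796384-43796392: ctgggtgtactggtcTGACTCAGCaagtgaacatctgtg
Since the number of reads is unknown, the absence of a peak says that none passed the authors' threshold, and not that NRF1 was absent.

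BLVRB (ENSG00000090013, chr19:40953672-40971671, minus strand), which also reduces flavins, had 2 peaks in intron 1. That at chr19:40970258-40970737 scored 139.83 (rank 1617), was centred 1155 bp downstream of the canonical TSS and held a full ARE 22 bp from its centre. The other, at chr19:40969087-40969850, scored 97.22 (rank 2629), was centred 2184 bp downstream of that TSS and held no full ARE. With a highest score of 139.83, BLVRB was the lowest of the 8 genes with a peak, and 2503 protein-coding genes (12.4%) had a highest peak of at least this score.

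The genes of the ferritin light and heavy chains, which together form the iron storage shell, each had a strong upstream peak. FTL (ENSG00000087086, chr19:49468566-49470136, plus strand) encodes the light chain. Its peak at chr19:49466887-49467613 scored 682.94 (rank 45) and was centred 1316 bp upstream of its single annotated TSS, with the full ARE 1363 bp upstream. A second FTL peak, at chr19:49470876-49471336 just past the end of the gene, scored 110.2 (rank 2243), was the narrowest of the 13 at 461 bp and had no full ARE.

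FTH1 (ENSG00000167996, chr11:61727190-61735106, minus strand) encodes the heavy chain, the subunit with ferroxidase activity. Its single peak at chr11:61739111-61739879 scored 655.9 (rank 57) and was centred 4389 bp upstream of the TSS, in the region of its known upstream ARE enhancer. The full ARE lay 4413 bp upstream of the TSS and 24 bp from the centre of the peak, and a further match, TGACAAAGC, lay 65 bp from the centre. The scores of the FTL and FTH1 upstream peaks were close (682.94 and 655.9), but without replicates they cannot be ranked.

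FECH and ABCB6, of heme synthesis and porphyrin transport, each had a peak with a full ARE close to a TSS, centred 289 bp and 284 bp from the nearest annotated one. FECH (ENSG00000066926, chr18:55211609-55253964, minus strand) encodes ferrochelatase, which inserts iron into protoporphyrin. Its peak at chr18:55253854-55254653 scored 584.23 (rank 85) and was centred 319 bp upstream of the canonical TSS, with the full ARE 283 bp upstream. This peak held 5 consensus matches, as many as the far upstream HMOX1 peak, but only 1 was full, and the others were TGACCTCGC, TGAGCGGGC, TGACTTCGC and TGACTAGGC.

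ABCB6 (ENSG00000115657, chr2:220074494-220083716, minus strand) encodes an ABC transporter that carries porphyrins. The peak at chr2:220082377-220082879 scored 296.63 (rank 424), lay in intron 1 at 1052 bp from the canonical TSS, and held a full ARE 47 bp from its centre. The distal peak at chr2:220117791-220118255 scored 62.65 (rank 4495), had 1 full ARE, and was centred 53 bp from a TSS of TUBA4A, an alpha-tubulin gene. It was the only peak of the set that lay nearer to another protein-coding gene than to a gene of the set.

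All 13 peaks held a consensus ARE (77.2 to 100%), beside 87.4% of the 5673 searched peaks. A full ARE was found in 10 of the 13 (49.7 to 91.8%), beside 61.3% of all searched peaks, a share that lies within that interval. The 13 peaks came from 8 genes, and both intervals treat them as separate and cover counting error only. The median score over all searched peaks was 103.43 with a full ARE, 83.71 with another consensus match only and 71.76 with none. In the gene set, the peaks with a full ARE scored 62.65 to 1008.48 and those without 97.22 to 352.27, so that the ranges overlapped. Peak width ranged from 461 to 1176 bp in the gene set (median 727 bp), beside 501 bp over all peaks, and their GC content was 42.9 to 63.2% with a median of 55.5%, beside 45.3%. Whether width or GC content bears on the scores was not tested. The full ARE nearest to the centre lay 11 to 69 bp away with a median of 38 bp, beside 30 bp over all peaks with a full ARE.

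**Figure D3:**
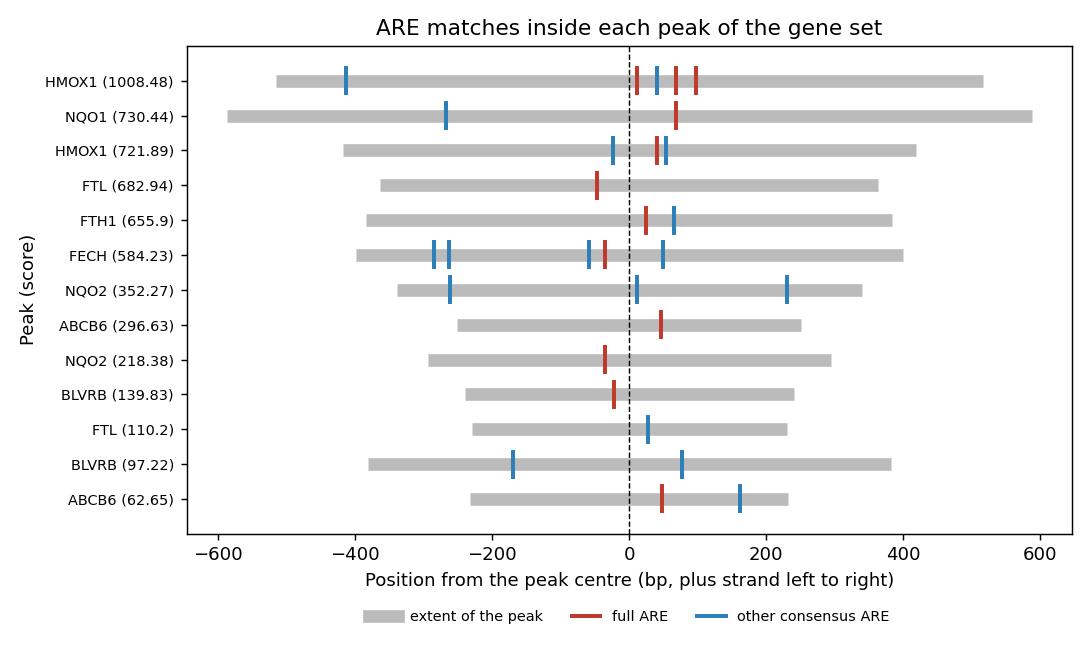
Extent of each of the 13 peaks (grey bars, bp from the peak centre, plus strand left to right), ordered by score from HMOX1 at the top, with full AREs as red and other consensus AREs as blue lines. A red line lies within 69 bp of the centre in 10 peaks, and the far upstream HMOX1 peak shows 3 red and 1 blue line at equal steps.

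The 3 peaks without a full ARE, the downstream peaks of NQO2 and FTL and the weaker peak of BLVRB, all held the variant TGACACAGC, which differs from the full ARE within the core. Of the 2195 searched peaks without a full ARE, 11.1% (243) held this variant, the most frequent in such peaks, followed by TGACTAAGC in 110. The sites of NQO2 and FTL are shown for comparison with the full ones, on the minus strand of hg19 with the variant in capitals.
NQO2, downstream, chr6:3024292-3024300: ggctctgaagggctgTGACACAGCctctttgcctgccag
FTL, downstream, chr19:49471129-49471137: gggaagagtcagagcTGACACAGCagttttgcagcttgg
In the NQO2 and FTL peaks the variant lay 12 and 27 bp from the centre. The NQO2 peak also held the core TGACTCA without the following GC, 73 bp from the centre.

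Many full AREs near these genes were not in a peak. Within 50 kb of a TSS of the 9 genes there were 31 full AREs, of which 12 lay in a peak, and within 10 kb there were 17, of which 11 did. Over hg19, 7.37% of 53132 full AREs lay in a peak, counted at any distance from a gene. The share for full AREs within 50 kb or 10 kb of any protein-coding gene was not computed. The set was also chosen with earlier results of these data known, so the shares are not a like comparison. The 12 sites in peaks all had A or G before the ARE, as did most full matches in all searched peaks (57.5% A and 30.9% G). The 19 sites outside had C in 6, T in 2, A in 8 and G in 3. The sites outside were also divided between TGACTCAGC in 10 and TGAGTCAGC in 9. Over hg19 the share in a peak was 18.2% after A, 11.5% after G, 2.05% after C and 0.549% after T, and it was 9.23% for TGACTCAGC and 4.26% for TGAGTCAGC. The letters were compared as a description, and chromatin accessibility at the sites outside peaks was not measured here.

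**Figure D4:**
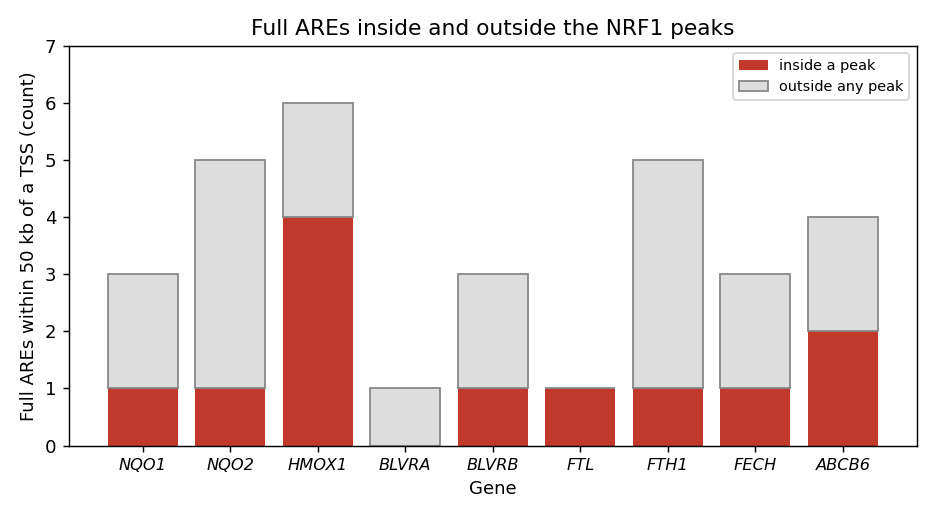
Number of full AREs within 50 kb of a TSS of each gene, split into those inside an NRF1 peak (red) and those outside any peak (grey). HMOX1 has 4 of 6 inside and FTL its only 1, while NQO2 and FTH1 have 1 of 5 inside and BLVRA 0 of 1.

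Single genes differed in this respect. FTL had 1 full ARE within 50 kb, and it was in the peak. NQO2 had 5, of which only the intron 1 site preceded by G was in a peak. A site of NQO2 outside any peak lay 146 bp from an annotated TSS and had C before it, and another in intron 1 at 1110 bp from an annotated TSS had A before it. In FTH1 the 4 sites outside peaks lay 7927 bp or more from a TSS.

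Other genes of these pathways were counted in the same way. Of 40 further genes in 4 lists, 9 had a peak within 2 kb of a TSS (22.5%, beside the 6.03% of all protein-coding genes) and 18 within 50 kb (45.0%, beside 32.7%). The 9 became 3 when only peaks with a score of at least 100 were counted, and 6 with the TSSs of protein-coding transcripts alone. The share over all protein-coding genes was not computed under these 2 settings, so the 3 and the 6 cannot be set beside the 6.03%. The highest scores of those 18 had a median of 96.1, below the lowest of the 8 genes above. Of 8 genes of heme transport and turnover 2 had a peak within 2 kb. These were SLC48A1, a lysosomal heme exporter (score 156.23, rank 1353, 1 full ARE, and a highest score within 50 kb of 320.89), and BACH1, the heme-binding repressor that competes for AREs (score 78.15, rank 3498, 2 full AREs). HMOX2, the constitutive heme oxygenase, had no peak within 50 kb, its nearest being 202652 bp away.

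Of 16 genes of iron uptake, storage, export and sensing, 3 had a peak within 2 kb, and all 3 scores lay below the median of all peaks, 91.86. ISCU, the scaffold for iron-sulfur cluster assembly, had a score of 75.42 and 1 full ARE. The iron chaperone PCBP1 had a score of 63.01 without a full ARE, and the mitochondrial iron importer SLC25A37 a score of 64.16 with no ARE and a highest score within 50 kb of 86.25. TFRC, the transferrin receptor, had no peak within 50 kb. Picked out after its value was seen, SLC40A1, the iron exporter ferroportin, had a peak with a full ARE 31539 bp from a TSS (score 268.77, rank 542).

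Of 8 other quinone and carbonyl reductases, 3 had a peak within 2 kb. AIFM2, the coenzyme Q reductase also called FSP1, had 2 such peaks, the nearest of them centred 58 bp from a TSS, with a full ARE and a score of 478.98 (rank 129) that lies between the highest scores of FECH and NQO2. CBR3, a carbonyl reductase, had a score of 85.87 with no ARE, and CYB5R1, of the cytochrome b5 reductase family, a score of 51.77 with no full ARE. POR, the cytochrome P450 oxidoreductase, was also picked out after its value was seen, with a score of 481.13 (rank 126) and 2 full AREs in a peak 7308 bp from a TSS.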

How the data were processed

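NRF1 ChIP-seq reads of 1 library were sequenced single-end. Per the submitters' processing notes and the study's methods, bcl2fastq in CASAVA 1.8.2, Bowtie2 2.2.6 on hg19 and MACS 1.4.2 were used. The authors deposited each peak's position and its MACS score, whose minimum in the list, 50, stands for p = 1e-05. MACS settings, treatment of duplicate reads and the control library are not given in the sources used here. Depth is unknown, and no test was possible.

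The members and the pathway lists were chosen with earlier results of these data known. Named were all members with each peak within 10 kb and their highest peak within 50 kb, and pathway genes with a peak within 2 kb, of which 1 is not reported here. The distal ABCB6 peak, HMOX2, TFRC, SLC40A1 and POR fall outside this rule and were named after their values were seen. Distances run from the peak centre to GENCODE 44 TSSs on hg19. The centre is the midpoint of the deposited interval and not the point of highest signal. Peaks on contigs or with undetermined bases, 10 in all, were not searched for AREs. The search was tested on simulated data. Repeats were not annotated. Python 3.11.15, pandas 2.3.3, numpy 2.4.6, scipy 1.17.1, pysam 0.24.0 and matplotlib 3.10.9 were used. Alternatives were a score of at least 100, distances to the edge, other TSS sets, assignment to the nearest gene, a 20 kb window, merged peaks and the central 200 bp.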

Additional observations from a re-analysis of the deposited data

How the results depend on the processing

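Of 39 alternative values, 38 stayed within 1.5 times the value given or within its counting interval. The exception was the number of pathway genes with a peak within 2 kb of a TSS, which fell from 9 to 3 when peaks under a score of 100 were left out. With TSSs of protein-coding transcripts only, it was 6, which sits on the limit of 1.5 times and was counted as within it. For counts this small, that limit is wide. Some values could not move: each gene of the set with a peak had a highest score of at least 139.83. The score limit of 100 thus left the number of genes within 50 kb unchanged by construction. The 38 is a tally and not a measure of robustness. Over the alternatives run for each, the genes of the set with a peak within 2 kb numbered 5 or 6, NQO2 being lost with canonical TSSs, and those within 50 kb stayed at 8. The assigned peaks numbered 11 to 13 and those with a full ARE 9 or 10. No paired analysis was possible because there was 1 ChIP library. For the same reason no replicate could be left out, and no score has a replicate error.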
